A study of Mus musculus with 4 samples.

Results

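The cells described here are the 428 cells that the authors' deposited annotation calls Basal in hyperplastic mammary glands, 228 from a gland library labelled PKA activated and 200 from one labelled wild type (WT). They were chosen by that annotation alone, and they are 428 of 7626 annotated cells of hyperplastic glands and of 15445 annotated cells in 4 single-cell libraries. All mice carried MMTV-PyMT, a transgene in which the mouse mammary tumor virus promoter drives polyoma middle T antigen in mammary epithelium, so the WT glands are hyperplastic too and WT refers to PKA. PKA is the cAMP-dependent protein kinase, and how it was activated, and in which cells, is not given in the labels. Both glands came from mice of 8 to 9 weeks, with the treatment given as none, and the number of mice in a library is not stated. Cells were sorted by FACS before loading, and the gate is not described, so it can set any share of cells below. The remaining libraries, 1 PKA and 1 WT tumor from mice of 16 to 20 weeks, hold no cell of the Basal name; the series' design text gives a later tumor age than the sample labels used here.

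Basal cells form the outer layer of the mammary ducts and alveoli, between the luminal cells that make milk and the basement membrane. Most are myoepithelial: they make keratins 5 and 14, carry smooth muscle actin and myosin, contract when oxytocin reaches them, and secrete basement membrane. The transcription factors Trp63 and Snai2 belong to this layer, and cells able to regenerate a gland have been traced to it. PKA is a pair of catalytic subunits held by regulatory subunits until cAMP binds, and its best known nuclear target is the transcription factor CREB.

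The smooth muscle genes of this layer are classic targets of serum response factor, which binds the CArG box. The 250 bases before the start of 2 contractile genes that mark these cells are shown for that reason, from RefSeq on GRCm38.p6, 5′ to 3′ on the gene's strand. Capitals mark a CArG box, which reads CC, 6 bases of A or T, then GG, and also its near matches, with 1 C or G among the middle 6. Acta2, smooth muscle actin, lies on the minus strand with its window at chr19:34255374-34255623, and Myl9, a myosin light chain, on the plus strand with its window at chr2:156775214-156775463.
Acta2: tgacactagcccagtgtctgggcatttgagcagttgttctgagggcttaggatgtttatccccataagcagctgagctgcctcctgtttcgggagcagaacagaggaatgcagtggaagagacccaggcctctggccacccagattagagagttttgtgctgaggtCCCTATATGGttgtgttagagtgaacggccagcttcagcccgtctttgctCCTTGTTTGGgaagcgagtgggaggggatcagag
Myl9: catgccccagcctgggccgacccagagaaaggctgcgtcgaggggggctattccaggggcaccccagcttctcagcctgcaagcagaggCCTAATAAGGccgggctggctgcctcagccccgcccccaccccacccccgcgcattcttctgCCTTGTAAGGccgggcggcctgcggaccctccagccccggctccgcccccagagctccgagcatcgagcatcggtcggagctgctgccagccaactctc
Myl9 held the box CCTAATAAGG, which starts 161 bases before the gene's start, and 1 near match. The Acta2 window held no exact match and 2 near ones. Of 17 contractile genes with a window, 1 held an exact box on either strand, against 439 of 27025 genes in all (1.62%), and 3 held a near match, against 8.33% of all genes. Boxes that differ in other ways were not searched. TATAAA on either strand was in 3 of the 17 and in 14.3% of all windows. A match here is a description of letters and not of binding.

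The Basal class held 5.97% (95% exact Clopper-Pearson interval 5.24 to 6.77) of annotated PKA gland cells and 5.25% (4.57 to 6.01) of WT gland cells. Its cells were shallower than the library as a whole, with a median of 1975.5 UMIs per cell in PKA and 1731.5 in WT, against 2557 and 2637.5 over all annotated cells. UMIs, the counts of distinct captured transcripts, were summed over the cells of a class in a library and scaled to 1000000 UMIs (CPM), from 513036 UMIs for PKA and 402113 for WT Basal cells. With 1 library per group, no test was possible. All intervals are 95% intervals for counting error only, and differences compare these libraries rather than the conditions. The share of mitochondrial UMIs was close in both, with a median of 2.49% in PKA and 2.22% in WT Basal cells. No cell barcode was shared between the PKA and WT Basal cells, whereas 18 were shared between all annotated cells of the 2 gland libraries.

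The defining genes were present as the class name says, in both libraries. The authors assigned the name from Krt14, Krt5 and Snai2, so these 3 levels describe the choice and support nothing. Krt14, a basal keratin, stood at 4226 CPM (4050 to 4408) for PKA and 2972 CPM (2806 to 3145) for WT Basal cells, against 136 and 96.9 CPM in Luminal Progenitor 1, the most frequent class. Krt5, its partner, stood at 532 CPM for PKA and 465 CPM for WT, and was nearly confined to the class, with 19 UMIs in 3590 other PKA cells and 7 in 3608 other WT cells. Acta2 stood at 6672 CPM (6450 to 6899) for PKA and 4354 CPM (4153 to 4563) for WT, against 25.4 and 18.4 CPM in the other classes. Myl9 reached 1417 and 1261 CPM, against 7.20 and 5.0 CPM in the other classes. Sparc, a secreted matrix glycoprotein, was at 4551 CPM for PKA and 5051 CPM for WT, against 14.3 and 9.23 CPM elsewhere. The PKA and WT levels lay far nearer to each other than to any luminal class.

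**Figure D1:**
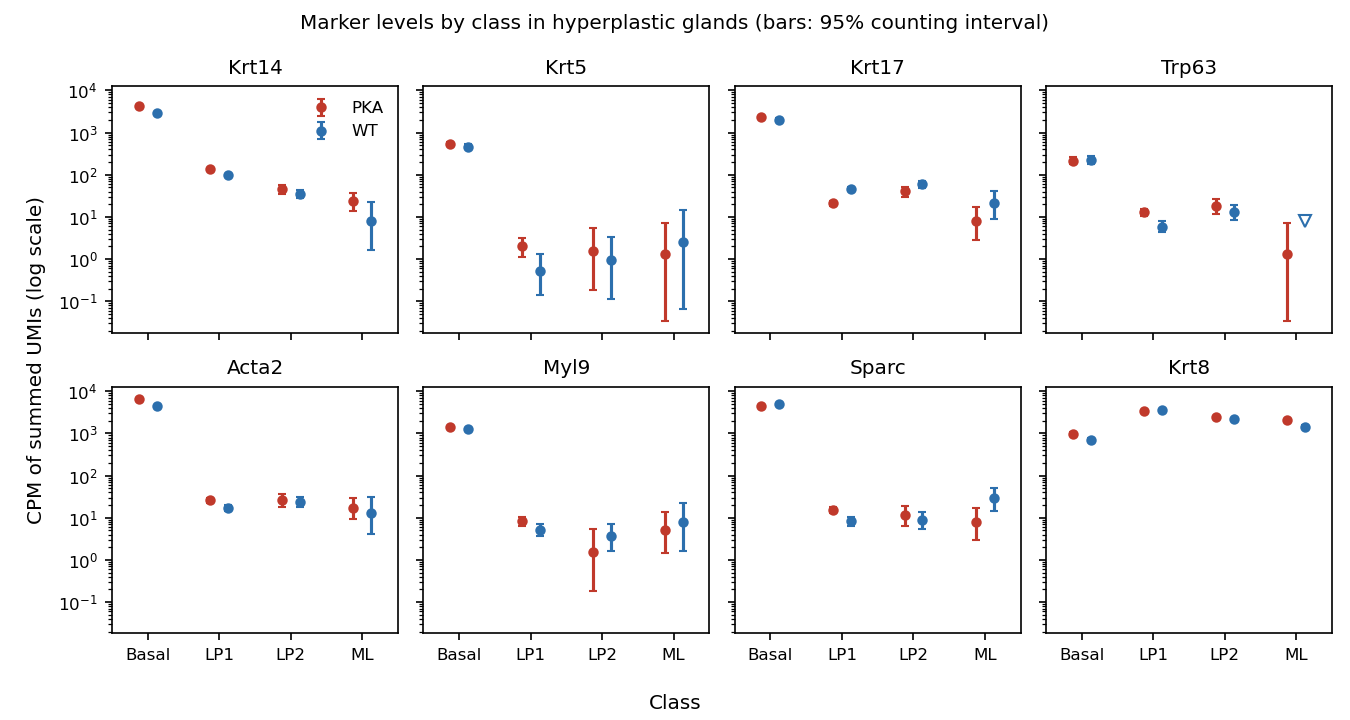
CPM of summed UMIs (log scale) for 7 basal markers and the luminal keratin Krt8 in each class (Basal; LP1 and LP2, Luminal Progenitor 1 and 2; ML, Mature Luminal), PKA in red and WT in blue; bars are 95% counting intervals and the open triangle is the limit that a count of 0 allows. Krt14 was at 4226 and 2972 CPM in Basal cells and at 136 CPM or less in each other class, whereas Krt8 was lower in Basal cells than elsewhere.

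Cell by cell the markers were patchier. After thinning every cell to 1000 UMIs, which kept 223 of 228 PKA and 178 of 200 WT Basal cells, Krt14 was seen in 71.3% (64.9 to 77.1) of PKA and 59.0% (51.4 to 66.3) of WT cells. In Luminal Progenitor 1 the thinned shares of Krt14 were 6.3% and 4.6%, and whether those cells made it themselves was not tested. Acta2 was seen in 74.9% and 68.5% of thinned Basal cells and Sparc in 83.4% and 87.6%. Krt14 and Acta2 together were seen in 57.8% (51.1 to 64.4) and 51.1% (43.5 to 58.7). Without thinning, Krt14 was seen in 76.8% of PKA and 68.0% of WT Basal cells. Summed keratin UMIs ran from 0 to 143 per cell in PKA, with a median of 11.5, and from 0 to 105 in WT, with a median of 7. There were 27 PKA and 34 WT cells with no UMI of the 6 basal keratins.

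Against the other classes of the same library, Basal cells were higher for genes of contraction, matrix and basement membrane. A gene counted as higher or lower when log2 of (CPM + 10) differed by at least 1, a 2-fold difference, among genes with at least 10 UMIs in both groups together. In the PKA library 915 of 14564 genes (6.28%) were at least 2-fold higher in Basal cells and 602 (4.13%) lower. In the WT library 958 of 14592 (6.57%) were higher and 605 (4.15%) lower. The authors' classes were made from expression of these same cells, so these counts describe the class and test nothing. Of 6 basal keratins, 6 were higher in PKA and 5 in WT. Contractile genes were higher for 16 of 19 measured in PKA and 14 of 18 in WT, with median log2 ratios of 2.88 and 1.97 against medians of -0.02 and -0.04 over all genes. Basement membrane and matrix genes were higher for 20 of 22 and 21 of 23, with medians of 3.10 and 3.04.

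Among the genes that stood farthest above the other classes in both libraries were genes of contraction and matrix. Mylk, the kinase that switches on smooth muscle myosin, was 168-fold higher in PKA and 136-fold in WT. Cnn1, the actin-binding calponin, was 278-fold and 316-fold higher, at 879 and 547 CPM in Basal cells. Eln, elastin, was at 1526 CPM for PKA and 1544 CPM for WT, 201-fold and 422-fold above the other classes. Col4a2, a chain of basement membrane collagen, was at 433 and 380 CPM, and Bgn, the small proteoglycan biglycan, at 694 and 870 CPM. Part of this matrix RNA lay in the cells called stromal-majority below. In WT they held 61 of 153 Col4a2, 118 of 350 Bgn and 155 of 621 Eln UMIs. In PKA they held 45 of 222, 69 of 356 and 88 of 783. Eln, Col4a2 and Bgn stayed at least 2-fold higher in every alternative setting, including without those cells. Apoe, the lipid carrier, was at 9241 and 9599 CPM, 204-fold and 321-fold higher.

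Signalling genes of the class stood as far out. Fst, the activin antagonist follistatin, was at 663 CPM for PKA and 654 CPM for WT, 354-fold and 358-fold above the other classes. Jag1, a Notch ligand, was at 620 and 734 CPM, 87.3-fold and 129-fold higher. Cxcl14, a chemokine, was at 606 CPM for PKA and 1368 CPM for WT, so its level in the class differed between the libraries by more than that of Fst or Jag1. Snai2, a repressor of epithelial genes, had 93 UMIs in PKA and 73 in WT Basal cells, with 4 and 2 in all other cells. Trp63 was less exclusive, 17-fold higher in PKA and 31.8-fold in WT, with 128 and 74 UMIs in the other classes.

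Genes of luminal cells were lower in Basal cells but not missing. Of 12 pan-luminal epithelial genes, 11 were at least 2-fold lower in each library, with medians of -2.29 in PKA and -3.04 in WT. Luminal progenitor genes were lower for 10 of 12 in each, and milk genes for 8 of 9 in PKA and 8 of 10 in WT. Of all genes, 4.13% were lower in PKA and 4.15% in WT. The lowest by the fixed rule were Cck, Amtn, Wfdc18, Plb1, Spp1, Dkkl1, Krt7 and Saa2. Cck, cholecystokinin, was 15.7-fold lower in PKA and 13.3-fold lower in WT, and Krt7, a luminal keratin, 9.98-fold and 12.4-fold lower. Wfdc18, a secreted whey acidic protein family member, was at 2269 and 2591 CPM in Basal cells, or 7.83% and 10.1% of its level in Luminal Progenitor 1. Krt8 in Basal cells was at 28.3% of its Luminal Progenitor 1 level in PKA and 20.0% in WT, Epcam at 41.4% and 25.3%, and Csn3, kappa casein, at 16.2% and 29.6%. Thinned to 1000 UMIs, 36.3% (30.0 to 43.0) of PKA and 24.7% (18.6 to 31.7) of WT Basal cells had both Krt14 and Krt8, and whether free RNA, doublets or the cells' own expression gave these was not tested. The same luminal genes were measured in the fibroblast-like cells described below, on few UMIs. There Csn3 was at 2.34% of its Luminal Progenitor 1 level in PKA (5 UMIs) and 27.0% in WT (95 UMIs), and Wfdc18 at 7.22% (26 UMIs) and 15.9% (97 UMIs). Krt8 was at 7.07% (3 UMIs) and 14.3% (12 UMIs), Epcam at 30.0% (4 UMIs) and 29.1% (11 UMIs), and Krt18, the partner of Krt8, at 11.3% (9 UMIs) and 21.2% (31 UMIs), against 18.3% and 13.1% in the Basal class. In WT, Wfdc18, Epcam and Krt18 were thus higher in fibroblast-like cells than in the class as a whole, whereas Krt8 was lower there in both libraries.

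Interferon response genes gave opposite signs by count and by sum. Of 14 measured genes, 7 were lower and 1 higher in PKA Basal cells, and 5 lower and 1 higher in WT, with medians of -1.0 and -0.58. Over all genes the shares were 4.13% lower and 6.28% higher in PKA, and 4.15% and 6.57% in WT. At those shares 1 higher gene of 14 does not stand out. Their summed level was nevertheless higher in Basal cells, 5766 against 4559 CPM for PKA and 6247 against 3393 CPM for WT. Ifitm3, a membrane protein that blocks virus entry, made up 4505 CPM of the PKA and 4939 CPM of the WT Basal sum. Genes of S phase summed to 205 CPM in PKA Basal cells against 187 CPM elsewhere (0.13, -0.16 to 0.42), and to 303 against 239 CPM in WT (0.34, 0.07 to 0.60). Those of G2 and mitosis summed to 60.4 against 98.2 CPM in PKA (-0.70, -1.27 to -0.19) and to 104 against 111 CPM in WT (-0.08, -0.56 to 0.36). Without stromal-majority cells, defined below, the WT ratio for G2 and mitosis was -1.31 (-2.15 to -0.58), the PKA one -0.60, and the WT ratio for S phase -0.06. Mki67, a gene of dividing cells, was seen in 2 of 223 thinned PKA cells and 1 of 178 thinned WT cells.

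RNA of other cell types was present in the class and came mostly from a small number of barcodes. The 8 lists of fibroblast, macrophage, MHC class II, endothelial, pericyte, lymphocyte, adipocyte and Schwann cell genes summed to 2397 CPM (2265 to 2535) for PKA and 5307 CPM (5084 to 5537) for WT Basal cells. In the other classes the same 8 lists summed to between 217 and 888 CPM. Thinned to 1000 UMIs, 51.6% of PKA and 56.7% of WT Basal cells had a UMI of these lists, against 16.7% and 17.5% in Luminal Progenitor 1. Cells in which such UMIs exceeded those of the basal keratin and epithelial lists numbered 23 of 228 in PKA (10.1%, 6.5 to 14.8) and 31 of 200 in WT (15.5%, 10.8 to 21.3). These stromal-majority cells held 66.0% of all such UMIs in PKA and 82.8% in WT, and their median count of basal keratin UMIs was 0 in each library. Each of them had at least 1 contractile UMI, as did all 228 PKA and 200 WT Basal cells, so this does not set them apart. Contractile UMIs were not part of the rule. Their median in these cells was 9 in PKA and 8 in WT, against 16 and 20 non-epithelial UMIs. Some cells met the rule with far more contractile UMIs, 1 PKA cell with 82 against 3 and 1 WT cell with 55 against 11. Leaving out stromal-majority cells is thus not the same as leaving out other cell types.

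**Figure D2:**
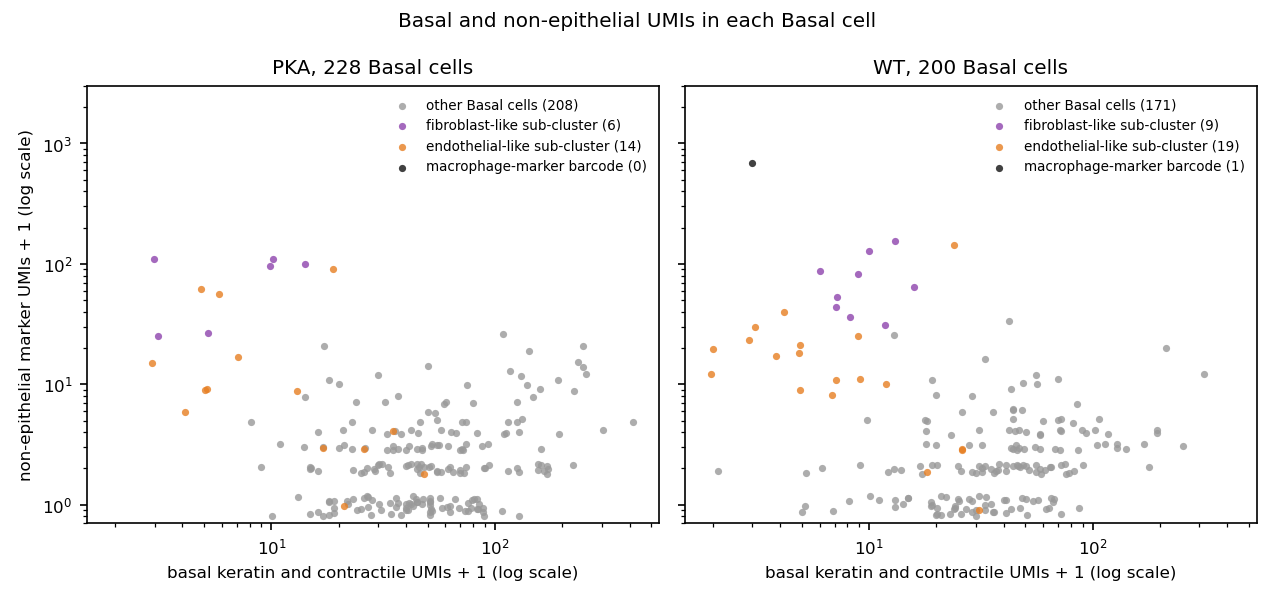
Each point is a Basal cell, with its UMIs of basal keratin and contractile genes (+ 1, log scale, jittered) on the x axis and its UMIs of the 8 non-epithelial lists (+ 1, log scale, jittered) on the y axis; colours give the fibroblast-like and endothelial-like sub-clusters and the barcode with macrophage genes. Fibroblast-like and most endothelial-like cells lie to the upper left, with many non-epithelial and few basal UMIs, and the macrophage barcode of WT stands apart at 690 UMIs.

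Of the 3 genes checked by name, C1qa, a complement subunit made by macrophages, came from a single WT barcode. All 55 WT UMIs of C1qa were in it, and the PKA Basal cells had 1 UMI of C1qa in all. The same barcode, with 3140 UMIs and 1060 genes, held 184 of the 201 WT UMIs of Cd74, the MHC class II chaperone, and 105 H2-Ab1 and 28 Tyrobp UMIs. It held 0 UMIs of Krt14, Krt5, Krt17, Acta2, Myl9, Sparc, Krt8 and Csn3, and 1 each of Krt18 and Epcam. Without stromal-majority cells, Cd74 stood at 69.2 CPM (47.3 to 97.7) for PKA and 47.6 CPM (27.2 to 77.2) for WT, and C1qa at 0 UMIs in both.

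Dcn, the matrix proteoglycan decorin, was more widely spread. Its 203 PKA UMIs were in 35 cells and its 298 WT UMIs in 50 cells, giving 396 CPM (343 to 454) and 741 CPM (659 to 830). A fibroblast-like sub-cluster of 15 cells, 6 of PKA and 9 of WT, held 115 of the PKA and 161 of the WT UMIs of Dcn. Those 15 cells had 0 UMIs of Krt14, Krt5 and Acta2, while Col1a2 stood at 5153 CPM in the PKA and 4907 CPM in the WT ones. Sparc did not tell them from other Basal cells, at 5072 and 4950 CPM. Dcn was also found in Mature Luminal cells, at 117 CPM for PKA and 599 CPM for WT, where Col1a2 had 0 UMIs in PKA and 1 in WT. Outside stromal-majority cells, 25 PKA and 36 WT Basal cells still had Dcn, at 145 CPM (112 to 184) and 279.4 CPM (226 to 342).

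A mixed sub-cluster held 33 cells, 14 of PKA and 19 of WT, and is called endothelial-like for its leading genes only. Cldn5, a junction protein of vessels, and Egfl7 were among its 10 leading genes, at 752 and 702 CPM. The Cldn5 UMIs lay in 4 of its PKA and 7 of its WT cells, so the name does not hold for each cell. It also held genes of pericytes, the cells that wrap small vessels, with Rgs5 at 715 CPM and Higd1b at 276 CPM. All 17 PKA and all 5 WT UMIs of Higd1b came from 1 cell in each library. Krt14 in this sub-cluster was at 882 CPM for PKA and 268 CPM for WT, so basal RNA was not absent from it. Luminal RNA was plentiful in it too. A set of 6 luminal progenitor markers, smaller than the list used above, summed to 9165 CPM there. The 6 epithelial markers Epcam, Krt8, Krt18, Krt19, Cldn3 and Cldn7 summed to 5642 CPM, and 6 endothelial markers to 2671 CPM. Both luminal sums were the highest of the 9 sub-clusters. Of the luminal progenitor sum, 2420 CPM was Lalba, with 162 of its 193 UMIs there in 1 PKA cell. Csn3 was at 5880, Krt18 at 2144 and Krt8 at 1479 CPM there. Among its 33 cells, 20 met the stromal-majority rule and 20 had no basal keratin UMI.

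The other 7 sub-clusters of the class carried basal markers and differed in keratin, contractile and luminal genes. They came from clustering the 428 cells on 1000 variable genes, and their levels describe the clusters with no test. Sub-cluster 4 (53 cells) and sub-cluster 6 (42 cells) were highest in the contractile genes Acta2, Myl9, Mylk, Myh11 and Cnn1, but not in all of them. Mylk stood at 2679 and 2113 CPM there, against 134 CPM in sub-cluster 3. Tagln was highest in sub-cluster 1, at 261 CPM against 151 in sub-cluster 4 and 131 in sub-cluster 6. Pdlim3 was highest in sub-cluster 5, at 286 CPM against 136 and 140. Smtn and Actn1 were highest in sub-cluster 8, at 495 and 789 CPM. Oxtr, the oxytocin receptor through which milk ejection is triggered, was at 136 CPM in sub-cluster 4 and 56 CPM in sub-cluster 6, and had no UMI in sub-cluster 3. Igfbp5, an IGF-binding protein, reached 10005 CPM and Actg2, enteric smooth muscle actin, 402 CPM in sub-cluster 6. In sub-cluster 4 Actg2 was at 37.7 CPM, against 98.5 CPM in the rest of the class. Sub-cluster 3 (54 cells) had Krt14 at 3443 CPM but Acta2 at only 1544 CPM, together with Krt8 at 1651, Krt18 at 1832 and Csn3 at 4940 CPM, and its median of 2478.5 UMIs per cell was the highest of the 9. Sub-cluster 8 (28 cells) had Inhba, an activin subunit, and Tnfrsf11b, the decoy receptor osteoprotegerin, among its leading genes.

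**Figure D3:**
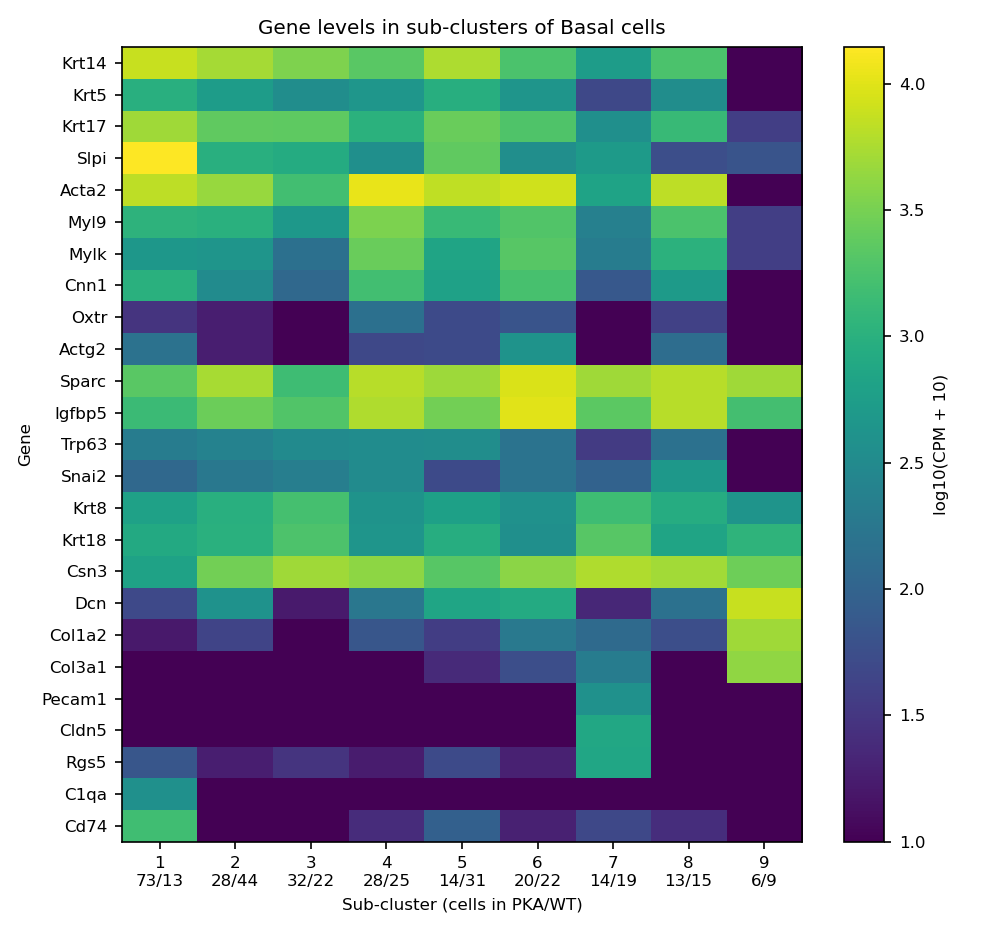
Level of each gene, as log10(CPM + 10), in 9 sub-clusters of the 428 Basal cells, with the number of PKA and WT cells under each. Sub-clusters 7 (endothelial-like) and 9 (fibroblast-like) are dark for Krt5 and bright for vessel or collagen genes, and Slpi is brightest in sub-cluster 1.

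Sub-cluster 1 was the most keratin-rich and was drawn mostly from the PKA library. It held 73 PKA and 13 WT cells, 1 of them the macrophage barcode. Apart from Slpi, its 10 leading genes were macrophage and class II genes, most of whose UMIs lay in that barcode, so it stays unnamed. With 1 library per group, such a cluster cannot be told apart from a property of that library. In its other 85 cells Krt14 was at 7736 CPM against 2891 CPM in the rest of the class, Krt17 at 5022 against 1673 CPM and Krt5 at 984 against 410 CPM. Slpi, a secreted inhibitor of leukocyte proteases, stood at 14262 CPM against 718 CPM. Id3 and Id4, inhibitors of helix-loop-helix transcription factors, were at 998 against 214 CPM and 193 against 13.1 CPM, and Wif1, a Wnt inhibitor, was at 220 against 22.3 CPM. Class II RNA was also higher in these 85 cells, on few UMIs. Cd74 was at 293 against 17.1 CPM (44 UMIs) and H2-Ab1 at 106 against 13.1 CPM (16 UMIs). Trbc2, a lymphocyte gene, was at 313 against 56.5 CPM (47 UMIs). Acta2 differed little, at 7025 against 5412 CPM, whereas Eln was lower at 160 against 1814 CPM, Sparc at 2248 against 5293 CPM, and Igfbp5 at 1430 against 4364 CPM. Csn3 was also lower there, at 659 against 4082 CPM.

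PKA and WT Basal cells were then compared with each other, the basal compartment being the one that the study's title names. Of 8308 genes measured, 172 (2.07%) were at least 2-fold higher in PKA and 203 (2.44%) lower, and the median log2 ratio over all of them was 0.002. A ratio above 0 was found for 4173 (50.2%) of them. These shares are the background for every count of list members below. Among the genes furthest apart, several rested on a few barcodes and others were spread over many cells. Leaving out stromal-majority cells gave 194 of 7768 genes higher (2.5%) and 186 lower (2.39%). Leaving out instead the fibroblast-like and endothelial-like sub-clusters and any cell with at least 5 macrophage or class II UMIs, a choice made after seeing the data, gave 205 of 7655 higher (2.68%) and 164 lower (2.14%).

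**Figure D4:**
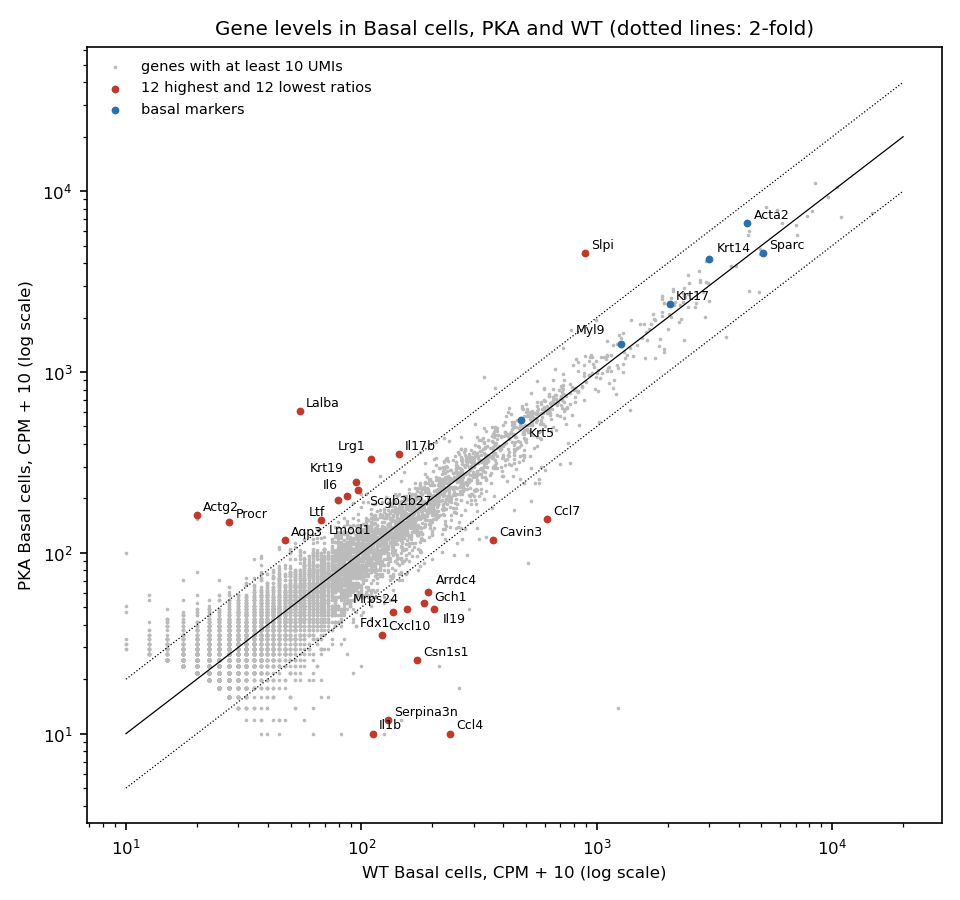
CPM + 10 of each gene in WT (x axis) and PKA (y axis) Basal cells, both on log scales, for the 8308 genes with at least 10 UMIs in both together; red marks the 12 highest and 12 lowest ratios among genes that the naming rule admits, blue 6 basal markers, the solid line equality and the dotted lines 2-fold. Basal markers lie between the dotted lines, and Slpi at 4551 against 883 CPM lies above them.

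Slpi had the largest difference among genes of high level. It counted 2335 UMIs in PKA Basal cells and 355 in WT, a log2 ratio of 2.37 (2.20 to 2.53). Cells with at least 10 Slpi UMIs, a bound set after the values were seen, numbered 55 of 228 in PKA (24.1%, 18.7 to 30.2) and 10 of 200 in WT (5.0%, 2.42 to 9.00), and held 92.5% and 49.9% of the Slpi UMIs. Sub-cluster 1 held 2076 of the PKA and 68 of the WT UMIs, and outside it PKA had 259 UMIs in 155 cells and WT 287 in 187 cells. In the luminal classes the log2 ratio of Slpi was 0.13 (Luminal Progenitor 1), 0.24 (Luminal Progenitor 2) and -0.07 (Mature Luminal). The difference between classes in this ratio was not tested.

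Contractile genes leaned to PKA, mostly by small amounts. All 19 measured had a ratio above 0, beside 50.2% of all genes, with a median of 0.14. At least 2-fold higher were 2 of 19, beside 2.07% of all genes. Without stromal-majority cells 17 of 18 stayed above 0 and the median was 0.06. Actg2 was the farthest apart, with 78 UMIs in 25 PKA cells and 4 UMIs in 4 WT cells, a log2 ratio of 3.93 (2.52 to 5.85), and 9 and 6 UMIs in all other PKA and WT cells. Lmod1, leiomodin, which seeds actin filaments in smooth muscle, had 73 UMIs in 53 PKA cells and 23 in 20 WT cells, a ratio of 1.31 (0.62 to 2.06). Acta2 differed by 0.62 (0.53 to 0.70) and Cnn1 by 0.68 (0.45 to 0.92), both under 2-fold. The ratio of Acta2 in Luminal Progenitor 1, where it had 210 and 135 UMIs, was 0.60. Myl9 at 0.17 and Mylk at 0.16 were close to equal.

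Basal keratins had a median ratio of 0.36, with 1 of 6 at least 2-fold higher and none lower. Krt14 differed by 0.51 (0.41 to 0.61), Krt17 by 0.22 (0.09 to 0.35) and Krt5 by 0.19 (-0.08 to 0.47). Sub-cluster 1, with 73 PKA and 13 WT cells, held 1021 of the 2168 PKA and 142 of the 1195 WT UMIs of Krt14. Outside it Krt14 was at 2996 CPM for PKA and 2781 CPM for WT, Krt17 at 1593 and 1751 CPM, and Krt5 at 387 and 433 CPM. The sub-cluster is keratin-rich, mostly PKA, and drawn from expression of these same cells. Leaving it out was thus bound to narrow the gap, and these values do not place the keratin difference. Acta2 still differed outside sub-cluster 1, at 6506 and 4296 CPM. In Luminal Progenitor 1 Krt14 had 1096 and 761 UMIs, a ratio of 0.49. Krt6a, a keratin of activated epithelium, had 20 UMIs in PKA and 2 in WT, a ratio of 2.97 (0.93 to 6.11), but the 20 were in 7 cells, with 75% of them in 3 cells. Krt16 went the other way, at 181 CPM for PKA and 271 CPM for WT. The transcription factors of the layer were near equal, with Trp63 at 214 and 226 CPM, Snai2 at 181 and 182 CPM and Sox10 at 168 and 182 CPM. Id4 was the member that was at least 2-fold higher, with 35 UMIs in PKA and 4 in WT (2.78, 1.29 to 4.73), and 29 of all Id4 UMIs were in sub-cluster 1. Mef2c, a muscle transcription factor, was the member that was lower, with 10 and 25 UMIs.

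Stem cell and Wnt genes included 4 of 12 that were at least 2-fold higher in PKA, beside 2.07% of all genes, each on few UMIs. Procr, the protein C receptor, known as a marker of multipotent mammary stem cells and also of endothelium, had 71 UMIs in PKA and 7 in WT. Of the 71 Procr UMIs, 65 were in stromal-majority cells and 51 in the endothelial-like sub-cluster. Lgr5, a Wnt co-receptor, had 9 UMIs in PKA and 1 in WT (2.82, -0.03 to 8.27), Lgr6 had 18 and 5, and Tspan8 had 19 and 3 (2.31, 0.55 to 4.71). Without stromal-majority cells 2 of 11 were at least 2-fold higher and the list's median was -0.02. Jag1 differed by -0.24 (-0.48 to -0.01).

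Basement membrane and matrix genes had a median ratio of -0.23, with none of 24 at least 2-fold higher and 4 lower, beside 2.44% of all genes lower. Timp3, a matrix-bound inhibitor of metalloproteases, had 119 UMIs in PKA and 215 in WT, 232 against 535 CPM, a ratio of -1.20 (-1.54 to -0.88), and -1.39 without stromal-majority cells. Lamb1, a laminin chain, was at 68.2 and 147 CPM, Fn1, fibronectin, had 12 and 30 UMIs, and Tnc, tenascin, had 1 and 15. Ctgf, a target of Yap and of TGF-beta, was at 286 and 570 CPM (-0.99, -1.30 to -0.69), just under 2-fold, and its ratio in Luminal Progenitor 1 was -1.0. Without stromal-majority cells the list's median was -0.07. Fibroblast genes, of which some share this matrix, were lower for 4 of 13, with a median of -0.77.

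Among secreted signals, 2 of 19 were at least 2-fold higher in PKA and 1 lower, beside 2.07% and 2.44% of all genes. Il17b, a cytokine, had 176 UMIs in 55 PKA cells and 54 in 31 WT cells (1.35, 0.91 to 1.82). Wif1 had 39 and 11 UMIs (1.47, 0.48 to 2.59). Cxcl14 was the lower one, with 311 UMIs in PKA and 550 in WT (-1.17, -1.38 to -0.97), although sub-cluster 1 was above the rest of the class for it, at 1570 against 821 CPM. Igfbp5 at 3834 and 3902 CPM and Apoe at -0.05 (-0.12 to 0.01) were alike in level. Il19, a cytokine of the IL-10 family, had 20 UMIs in 9 PKA cells and 78 in 19 WT cells, with none of them in stromal-majority cells.

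Pan-luminal epithelial genes were slightly higher in PKA Basal cells, while several abundant secreted luminal products were lower. All 12 pan-luminal genes had a ratio above 0, beside 50.2% of all genes, with a median of 0.18. At least 2-fold higher were 2 of 12, beside 2.07% of all genes. Krt18 differed by 0.54 (0.34 to 0.74) and Krt8 by 0.44 (0.23 to 0.66). Krt19, a luminal keratin, had 121 UMIs in 52 PKA cells and 34 in 22 WT cells (1.48, 0.92 to 2.07). Csn3 went the other way, at 2791 CPM for PKA and 4409 CPM for WT (-0.66, -0.76 to -0.56), as did Lcn2, lipocalin 2, at 5701 and 7053 CPM (-0.31, -0.38 to -0.23), and Wfdc18 (-0.19, -0.31 to -0.07). Lalba, alpha-lactalbumin of milk, had 307 UMIs in PKA and 18 in WT (3.74, 3.06 to 4.51), but 162 of the Lalba UMIs were in 1 PKA cell. Ltf, lactoferrin, had 79 of its 96 PKA UMIs in 1 cell, and its ratio was 1.43 (0.81 to 2.09) in Basal cells beside 1.39, 1.39 and 1.37 in the luminal classes. Lrg1, a secreted glycoprotein, had 67 of its 165 PKA UMIs in 1 cell. Of other luminal lists, luminal progenitor genes had 3 of 12 higher and none lower, mature luminal genes 2 of 5 higher, and milk genes 1 of 8 higher and 2 lower. Csn1s1, another casein, was lower in PKA with 8 UMIs in PKA and 65 in WT, and was as far apart in the luminal classes, where ratios ran from -3.80 to -3.25.

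Other genes at the extremes sorted by how many cells held them. Ccl4 and Il1b, inflammatory cytokines of macrophages, had 0 UMIs in PKA Basal cells, but all 92 WT UMIs of Ccl4 and 40 of the 41 of Il1b were in the macrophage barcode. Counted against 3 UMIs over the PKA cells, Ccl4 was at least 39.1-fold lower and Il1b at least 17.4-fold lower in PKA. Il6, a cytokine, had 101 UMIs in PKA and 31 in WT, and all 101 were in stromal-majority cells. Ccl7, a monocyte chemokine, had 74 and 242 UMIs, with 191 of the 242 in fibroblast-like cells, and its ratio moved from -2.06 to -0.04 without stromal-majority cells. Cxcl1, a neutrophil chemokine, did the reverse: 0.17 (-0.01 to 0.35) in all Basal cells and 1.51 without stromal-majority cells, beside 1.42 in Luminal Progenitor 1. Cxcl10, a chemokine induced by interferon, had 13 UMIs in 4 PKA cells and 45 in 7 WT cells.

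Serpina3n, a secreted protease inhibitor, was lower in PKA across many cells. It had 1 UMI in 1 PKA cell and 48 UMIs in 30 of 200 WT cells, a log2 ratio of -5.94 (-11.27 to -3.39), and -5.82 without stromal-majority cells. In all other cells Serpina3n had 0 UMIs in PKA and 4 in WT. Gch1, the first enzyme of tetrahydrobiopterin synthesis, had 22 UMIs in 19 PKA cells and 70 in 55 WT cells (-2.02). Its ratio was -1.42 in Luminal Progenitor 1. Arrdc4, an arrestin-like gene, had 26 UMIs in 22 PKA cells and 73 in 49 WT cells, and its ratio in the luminal classes ran from -0.53 to -0.19. Mrps24, Fdx1 and Cavin3, a mitochondrial ribosomal protein, a mitochondrial ferredoxin and a caveolar coat protein, were at least 2-fold lower in Basal cells and also lower in each luminal class. Their Luminal Progenitor 1 ratios were -1.59, -1.96 and -1.63. Aqp3, a water and glycerol channel, had 55 UMIs in 36 PKA cells and 15 in 12 WT cells, and 41 of the 55 were in sub-cluster 1. Scgb2b27, a secretoglobin, had 109 and 35 UMIs (1.29), with a ratio of 1.68 in Luminal Progenitor 1.

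Genes of the PKA pathway itself had no call in either direction. Of 15 measured, 0 were at least 2-fold higher or lower, beside 2.07% and 2.44% of all genes, shares at which a list of 15 would hold hardly any. Their median ratio was -0.28, against 0.002 over all genes, with 9 of 15 below 0, and their summed level was 1405 CPM for PKA and 1708 CPM for WT (-0.28, -0.43 to -0.13). Prkar1a, the main regulatory subunit, had 154 UMIs in PKA and 167 in WT, 300 against 415 CPM (-0.47, -0.79 to -0.14). Prkaca, a catalytic subunit, had only 16 and 12 UMIs, with an interval from -1.11 to 1.28, so a ratio within those bounds could not be told from 0 at this depth. Pde4b, which breaks down cAMP, differed by -0.34 (-0.66 to -0.02). CREB target genes had 0 of 17 at least 2-fold apart and a median of 0.05. Rgs2, one of them, had 57 and 22 UMIs (1.02, 0.29 to 1.80, under 2-fold once 10 CPM was added), and Nr4a1 was at 109 and 102 CPM. Whether kinase activity differed is not measured by RNA.

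MHC class I genes were lower in PKA as a group, none of them by 2-fold. Of 12 measured, 11 had a ratio below 0, with a median of -0.48, and -0.45 without stromal-majority cells. B2m, the light chain of class I, was at 2752 CPM for PKA and 4884 CPM for WT (-0.83, -0.93 to -0.73), H2-K1 at 1335 and 1910 CPM, and H2-D1 at 1181 and 1756 CPM. B2m was also lower in PKA in the luminal classes, at 3169 against 4749 CPM in Luminal Progenitor 1 and 2119 against 7427 CPM in Mature Luminal. The list's median there was -0.28 in Luminal Progenitor 1, -0.03 in Luminal Progenitor 2 and 0.07 in Mature Luminal. Interferon response genes had a median of 0.06, with 1 of 14 higher (Oasl2) and 1 lower (Rsad2). Stress genes had 2 of 15 lower, Jun at 234 and 557 CPM and the small heat shock gene Hspb1 at 113 and 328 CPM, and 1 of 9 p53 targets was lower, Phlda3 at 127 and 298 CPM. In Luminal Progenitor 1 the ratios of Jun, Hspb1 and Phlda3 were -1.13, -1.72 and -2.25.

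**Figure D5:**
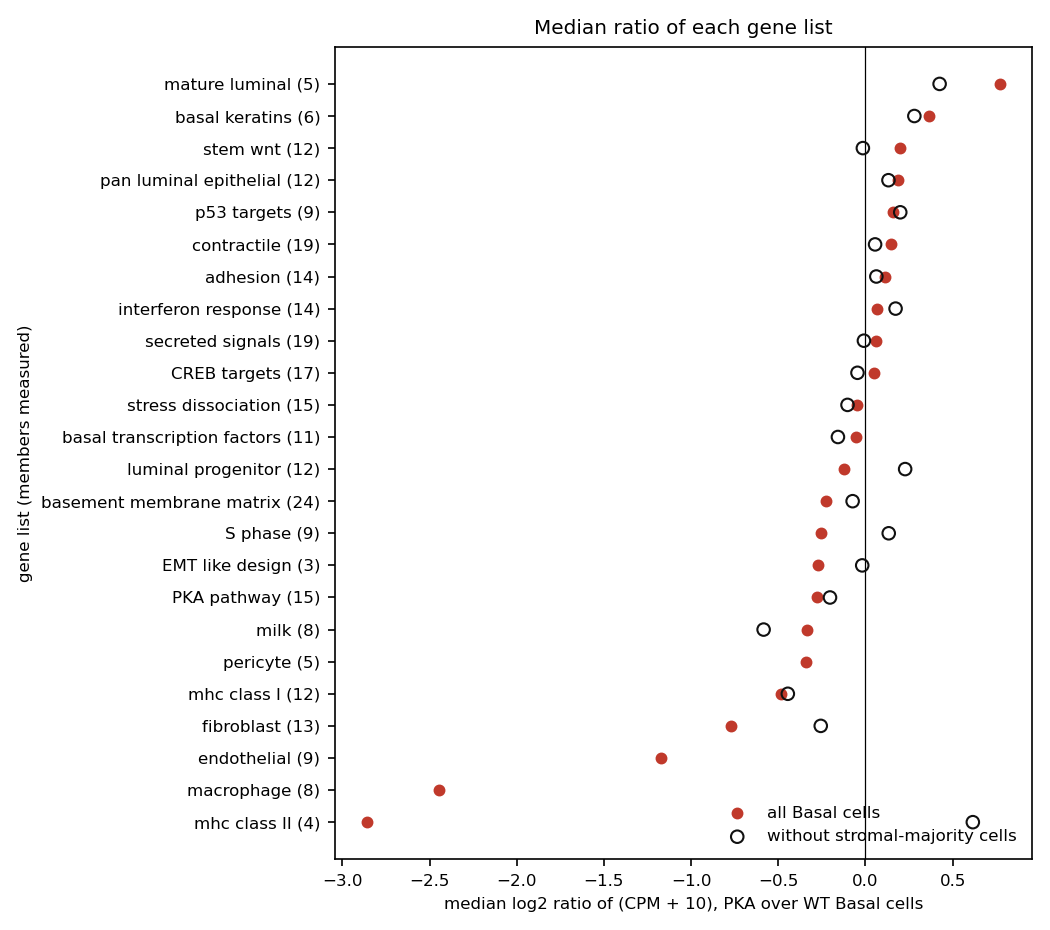
Median log2 ratio of (CPM + 10), PKA over WT Basal cells, of each gene list with at least 3 measured members (number in parentheses), in all Basal cells (red) and without stromal-majority cells (open circles, where at least 2 members remained measured). The medians of mature luminal genes (0.77) and milk genes (-0.34) bound the epithelial lists in all Basal cells, while MHC class II genes move from -2.86 to 0.62.

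Macrophage, class II and endothelial genes were lower in PKA, and the first 2 lists depended on a single barcode. Macrophage genes were at least 2-fold lower in PKA for 7 of 8 and MHC class II genes for 4 of 4, with medians of -2.45 and -2.86. The single WT macrophage barcode held 211 of the 220 macrophage and 468 of the 494 class II UMIs. Without stromal-majority cells no macrophage gene was measured, and the median of 2 class II genes was 0.62. Endothelial genes were lower for 5 of 9, with 119 UMIs in PKA and 220 in WT. Pericyte genes summed to 201 CPM for PKA and 211 CPM for WT, and lymphocyte genes to 123 and 99.5 CPM, both ratios having intervals that include 0. In a sorted suspension, fewer cells of a type and less RNA per cell cannot be told apart from these sums.

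No tumor cell carried the Basal name in the final class column of the tumor annotation, 0 of 2638 in PKA and 0 of 5181 in WT. A count of 0, taken as up to 3 cells, allows shares of up to 0.114% and 0.0579%. Over all annotated tumor cells Krt5 was at 0.4 CPM for PKA and 3.7 CPM for WT, and Acta2 at 11.0 and 13.4 CPM. Krt14 and Krt17 stood higher there than Krt5 and Acta2. Krt14 was at 218 and 411 CPM, with 727 and 948 CPM in the cells named Lumino-Basal, and Krt17 at 58.5 and 174 CPM, with 679 and 431 CPM in the Lumino-Basal cells.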

How the data were processed

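Libraries were made with the 10x Chromium 3′ v2 kit, per the labels' protocols. The deposited tables of raw UMI counts hold 1 column per barcode. Cell Ranger, STAR 2.5.3a, featureCounts of Subread 1.6.0 and GRCm38/mm10 are named in the submitters' processing notes, and no annotation release was found in the sources used here. Each annotated cell also has the authors' own count of genes and UMIs (equal to the sums recomputed here for every gland cell), the deposited fraction of mitochondrial UMIs, and the class that Monocle2 assigned, per the series design. How 3818 of 4858 PKA and 3808 of 5179 WT gland barcodes came to be annotated is not stated, and the rest were not used.

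UMIs were summed per class and library. Log2 ratios of CPM carry exact conditional binomial intervals, levels exact Poisson intervals and shares exact Clopper-Pearson intervals (a share of 0 among tumor cells has the limit that 3 cells give), and calls and list medians use log2 of (CPM + 10). Between PKA and WT only the 21434 genes in both gland tables were compared. Genes were named by rule: the 12 highest and 12 lowest ratios of PKA to WT, and the 15 highest and 8 lowest of Basal cells to the rest by the library with the smaller difference, if the higher group reached 100 CPM. Mitochondrial, ribosomal protein, haemoglobin, predicted, Xist, Tsix and Y-linked genes and the 8 non-epithelial lists were outside that rule. Members of 28 lists, markers and the 10 leading genes of a sub-cluster could be named too. Members and lists were chosen with earlier results of these data known, and any other gene was named after its values were seen.

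Leiden clustering of the 428 cells used 1000 variable genes, 20 components, 15 neighbours and resolution 1. Scrublet called 5 of 7626 gland cells doublets, a share too low to trust, so none were removed. The steps were tested on simulated counts. Tools were scanpy 1.11.5, leidenalg 0.10.2, pandas 2.3.3, SciPy 1.17.1 and NumPy 2.4.6 under Python 3.11.15, and edgeR 4.0.16 (R 4.3.3) for TMM factors only. Alternatives were other scalings, cell filters, doublet handling, added CPM, UMI minimums, thinning depths and resolutions, and leaving out stromal-majority cells. Leaving out the stromal sub-clusters was chosen after seeing the data.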

Additional observations from a re-analysis of the deposited data

How the results depend on the processing

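With 1 library per group, no replicate could be left out. No paired analysis was possible because each group holds 1 library and no result comes from a test. Counts of genes at least 2-fold apart depended most on the CPM added before the ratio. With 1 CPM added, Basal cells against other classes gave 1929 higher and 2950 lower in PKA and 1978 and 3267 in WT, and PKA against WT gave 454 and 481. With 50 CPM added the same counts were 304 and 150, 351 and 136, and 12 and 37. A minimum of 50 UMIs left 37 higher and 57 lower in PKA against WT. Of 277 list members measured, 17 (6.14%) were higher and 34 (12.3%) lower in PKA, beside 2.07% and 2.44% of all genes measured. The lists were chosen with earlier results of these data known. The higher members were 27, 5 and 9 with 1 CPM, 50 CPM and 50 UMIs. The lower were 14 with 50 CPM, 15 with 50 UMIs, 15 without stromal-majority cells and 12 without the stromal sub-clusters. The MHC class II median turned to 0.62 without stromal-majority cells and 0.25 without those sub-clusters. On the scale of (CPM + 10), Il6 turned to -1.31 and -0.99 in the same settings, and Ltf to -0.87 without doublet calls and the 5% of cells with most UMIs. Procr, Ccl7, Cxcl10 and Il1b fell under 2-fold when stromal-majority cells were left out, and Lrg1 without doublet calls and the cells with most UMIs. With the mean of each cell's CPM in place of summed UMIs, Il17b (0.85), Lrg1 and Ltf fell under 2-fold. Aqp3, Lmod1, Scgb2b27, Il6 and Ltf did so with 50 CPM added, and Scgb2b27 also without the stromal sub-clusters.

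The Basal share was 4.69% of all PKA barcodes and 3.86% of all WT barcodes, and 4.47% in WT without stromal-majority cells. The PKA non-epithelial sum was 2536 CPM without doublet calls and the deepest cells. Cells with at least 2 non-epithelial UMIs numbered 102 in PKA and 94 in WT, and those with at least 5 numbered 44 in each, against 23 and 31 by the majority rule. Shares of cells with such a UMI were 36.4% and 43.5% at 500 UMIs, 59.5% and 74.0% at 1500, and 67.5% and 71.0% without thinning. At resolution 0.5 the fibroblast-like and endothelial-like cells fell into 1 sub-cluster of 47 cells. The sub-cluster with Slpi among its 10 leading genes held 80 PKA and 26 WT cells at resolution 0.5, and 44 and 4 at resolution 2. Of the alternatives for named genes, 238 of 262 PKA against WT values and 446 of 552 Basal against other classes moved by less than their counting interval.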
